A study of Mus musculus with 10 samples.

Results

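The parathyroid hormone and calcium hormone receptor genes described here are 10 genes of mouse femur: the ligand Pthlh, the receptors Pth1r, Casr, Calcr and Calcrl, the receptor partners Ramp1, Ramp2 and Ramp3, and the vitamin D enzymes Cyp27b1 and Cyp24a1. The rule that finds them uses names and accessions alone: every gene probe on the array that carried a member's name (Pth1r also under its older name Pthr1) or an accession of that gene was taken. This gave 16 probes out of 41174 gene probes on the array, and 10 genes out of 27670 gene symbols. Of the 16 probes, 15 probes of 9 genes were bright enough to be tested, and the single probe of Cyp24a1 was not.

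The study compared the femurs of 5 unloaded mice with those of 5 control mice, all male ICR mice aged 6 months, with 1 Agilent one-colour array per animal. Unloaded mice hung by the tail, head down, for 24 h, so that the hind legs bore no weight, and weighed 27.3 ± 1.72 g (SD, n = 5). Control mice moved freely and weighed 28.6 ± 1.78 g (SD, n = 5). ICR is an outbred stock, the labels give no genetic alteration in either group, all animals were housed singly before assignment, and the protocols mention no removal of marrow or cartilage from the bone.

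Parathyroid hormone and the related peptide made from Pthlh both act through the receptor made from Pth1r, which sits on osteoblasts, osteocytes and growth plate chondrocytes and signals mainly through a stimulatory G protein and cAMP. The calcium-sensing receptor, Casr, lets cells read the calcium around them, and in the parathyroid gland it holds back hormone release. Calcitonin acts through the calcitonin receptor, Calcr, on osteoclasts. The related receptor Calcrl binds its ligands only together with a small membrane partner, a RAMP: with the product of Ramp1 it is the receptor for calcitonin gene-related peptide, and with that of Ramp2 or Ramp3 a receptor for adrenomedullin, a peptide important for blood vessels. Cyp27b1 makes the active form of vitamin D and Cyp24a1 breaks it down.

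Promoter windows of Pth1r and Calcrl are shown because Pth1r was the gene whose 2 probes followed each other most closely over the animals, and Calcrl the gene with the largest difference between the groups. They run from 250 bases before to 50 bases after each annotated start, 5′ to 3′ on the gene's strand, and were taken from RefSeq for GRCm38.p6. Capitals mark matches, on either strand, to the GC box GGGCGG or to TGACG, the core shared by sites for cAMP-responsive factors. Pth1r has 3 such windows on the minus strand of chromosome 9, at chr9:110747096-110747395, chr9:110743637-110743936 and chr9:110742561-110742860, and the window of Calcrl is on the minus strand at chr2:84425217-84425516.
Pth1r start 1: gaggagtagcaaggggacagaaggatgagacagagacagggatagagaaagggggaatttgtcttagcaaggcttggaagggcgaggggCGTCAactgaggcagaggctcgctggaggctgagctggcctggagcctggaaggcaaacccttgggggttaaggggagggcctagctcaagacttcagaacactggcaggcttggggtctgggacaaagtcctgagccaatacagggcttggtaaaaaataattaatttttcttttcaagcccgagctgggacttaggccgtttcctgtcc
Pth1r start 2: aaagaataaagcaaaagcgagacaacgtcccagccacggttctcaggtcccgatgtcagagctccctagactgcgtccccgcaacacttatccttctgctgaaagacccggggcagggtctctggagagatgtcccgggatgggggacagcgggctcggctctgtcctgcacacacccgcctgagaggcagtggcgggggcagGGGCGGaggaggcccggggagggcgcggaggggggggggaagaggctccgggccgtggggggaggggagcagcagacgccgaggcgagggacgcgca
Pth1r start 3: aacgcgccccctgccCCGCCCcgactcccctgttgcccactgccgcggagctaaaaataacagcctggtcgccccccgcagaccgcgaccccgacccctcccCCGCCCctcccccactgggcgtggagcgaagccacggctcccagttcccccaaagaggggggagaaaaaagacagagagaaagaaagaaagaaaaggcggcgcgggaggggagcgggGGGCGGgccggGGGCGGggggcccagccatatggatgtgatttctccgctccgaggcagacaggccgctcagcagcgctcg
Calcrl start 1: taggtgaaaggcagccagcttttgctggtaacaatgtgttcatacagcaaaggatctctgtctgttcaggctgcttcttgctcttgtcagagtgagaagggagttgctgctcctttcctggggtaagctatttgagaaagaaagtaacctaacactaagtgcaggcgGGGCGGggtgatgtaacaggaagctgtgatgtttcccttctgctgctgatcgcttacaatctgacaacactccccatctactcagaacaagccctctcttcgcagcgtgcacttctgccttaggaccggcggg

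The first window of Pth1r held 1 TGACG match and 54.3% G and C, the second 1 GC box and 68% G and C, and the third 4 GC boxes and 69.3% G and C. The window of Calcrl held 1 GC box and 50.7% G and C. Among 32851 windows of 300 bases in the same table, GGGCGG was present in 35.7% and TGACG in 20.8%. None of the 4 windows held the complete site TGACGTCA, which was present in 1.79% of all windows, or TATAAA, which was present in 13.6%. A match describes letters and not a working site. Windows were available for 8 of the 10 genes, and the array's own probe sequences were not used here.

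Signal is given throughout as log2 of the scanner's processed signal minus the 75th percentile of that signal on the same array, so 0 is the brightness of the array's 75th percentile and 1 unit is a doubling. Before this scaling the percentile was between 637 and 903 intensity units, and on each array between 89.8% and 95.5% of spots stood well above background. Levels of different probes are not set against each other, because each probe has its own hybridisation efficiency. The arrays lay on 3 slides: unloaded animals 4 and 5 shared the third, unloaded animals 1 to 3 and control 5 the second, and controls 1 to 4 the first. Slide and group are therefore almost inseparable, and the second slide alone holds both. The array of unloaded animal 5 stood apart, with a median correlation of 0.973 with the other arrays, against 0.986 to 0.988 for the other 9. All 8 osteoblast and osteocyte markers and all 8 osteoclast markers, among them Bglap, Dmp1, Ctsk and Acp5, were bright enough to be tested. The same was true of 38629 of all 41174 gene probes, so passing this filter does not show that a cell type was present.

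After 1 day without load, none of the 10 genes differed between the groups beyond the threshold, which was a Benjamini-Hochberg adjusted p below 0.05 over all 38629 tested probes in limma. The lowest adjusted p among the 15 member probes was 0.256 and the highest 0.930. Across all tested probes the same test called 1 probe, or 0.00259%, a probe of the stress-induced gene Ddit4. At an unadjusted limma p below 0.05 there were 3 member probes of 15. Over all probes the share was 16.1% (6225), so that the members' count was near the background. The 3 were the first Calcrl probe, the Casr probe and the second Ramp1 probe, which targets a cDNA clone. The probe of the annotated Ramp1 transcript had an unadjusted limma p of 0.207. The difference was positive for 12 member probes and negative for 3, with a median of 0.15 log2 units, while 62.6% of all probes were positive and their median was 0.066. In no member probe were the 2 groups separate from each other, and over all probes the groups were separate in 3.16%. The same count of 0 called member probes was found without unloaded animal 5. In a whole bone, fewer cells of a type and less RNA per cell cannot be told apart.

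**Figure D1:**
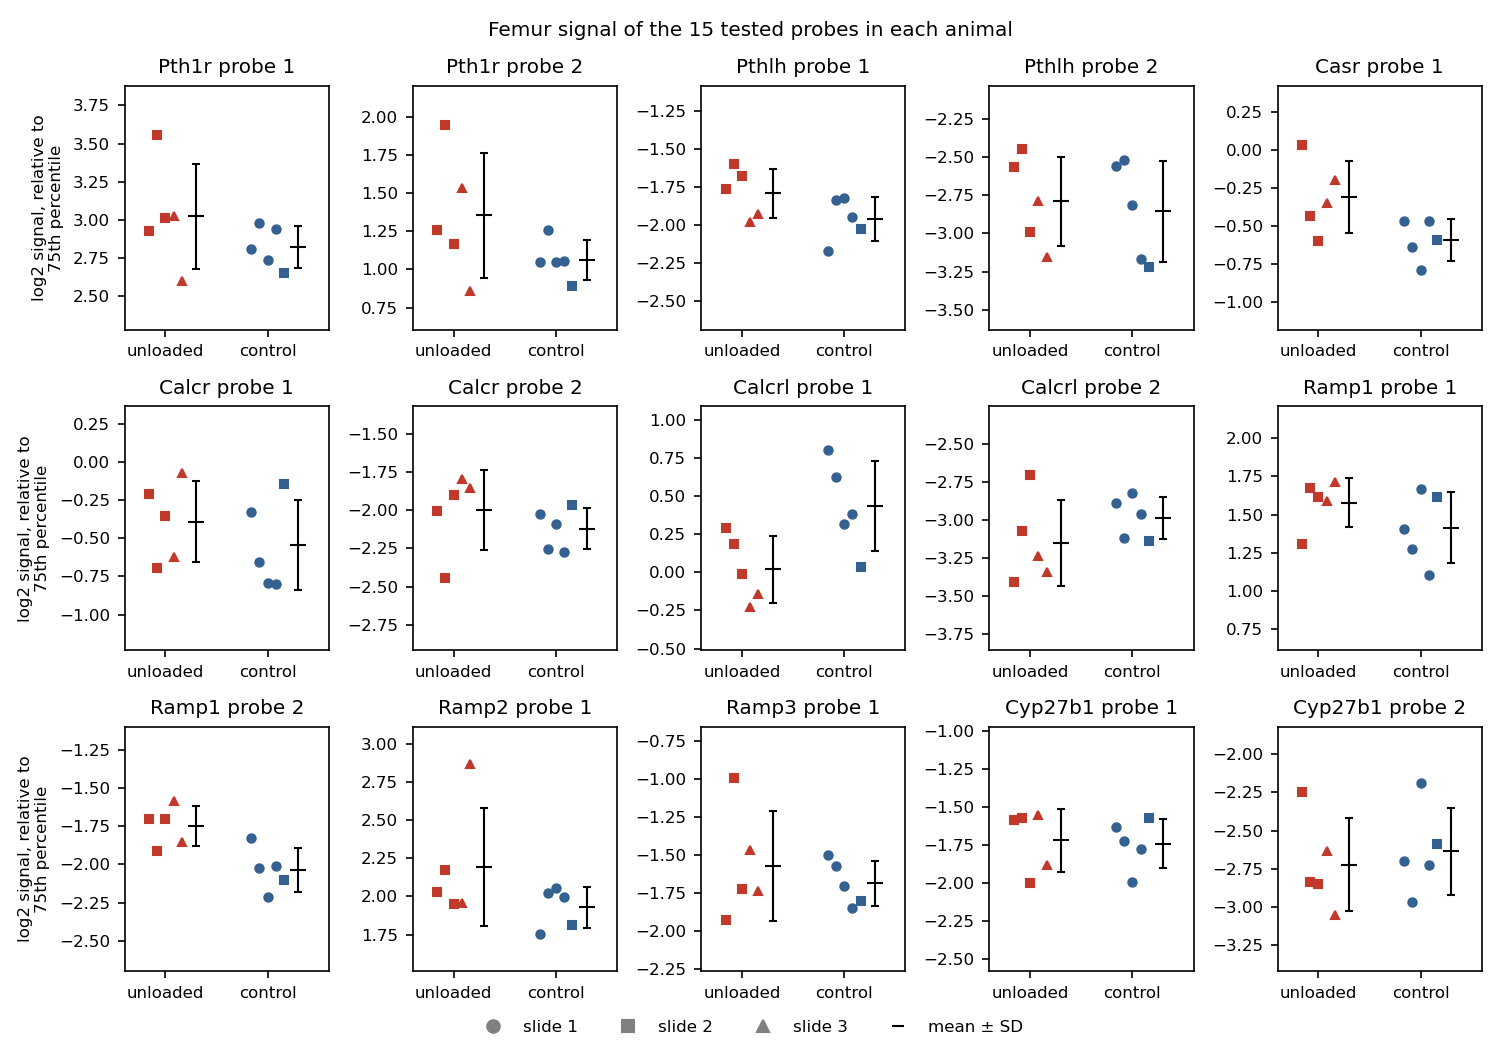
Scaled log2 signal of the 15 tested probes, 1 panel per probe, with unloaded animals on the left and control animals on the right. Each point is 1 animal, its shape gives the slide, the bars are mean ± SD (n = 5), and every panel spans 1.6 log2 units; the groups overlap in all 15 panels.

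Pthlh, the gene of the hormone-related peptide, had 2 probes, both well above background on all 10 arrays. Its first probe, A_51_P129360, gave -1.76, -1.60, -1.68, -1.98 and -1.93 in unloaded animals 1 to 5, against -2.17, -1.84, -1.83, -1.95 and -2.03 in controls 1 to 5. Of the 5 unloaded values 3, all on the second slide, were above every control, and the rest lay within the control range. The mean was -1.79 ± 0.16 in unloaded animals and -1.96 ± 0.14 in controls (SD, n = 5 each), a log2 difference of 0.17 with a standard error of 0.107 (limma, adjusted p = 0.408). The second probe, A_51_P129363, spread more widely and differed by 0.068, with a 95% interval from -0.30 to 0.43. It was between -3.15 and -2.45 in unloaded animals and between -3.22 and -2.52 in controls. Within the second slide, against control 5 alone, the difference was 0.34 on the first probe and 0.55 on the second. Both probes target the same transcript accession, and their values over the 10 animals were only loosely related, with r = 0.28.

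Pth1r, the receptor that Pthlh and parathyroid hormone share, was somewhat higher in unloaded bone on both of its probes, without passing the test. Probe A_51_P327874 gave 2.92, 3.56, 3.01, 3.02 and 2.60 in unloaded animals 1 to 5, against 2.81, 2.98, 2.74, 2.94 and 2.65 in controls 1 to 5. Unloaded animal 2 had the highest value of all and unloaded animal 5 the lowest, so the unloaded group enclosed the whole control range. Its mean was 3.02 ± 0.34 in unloaded animals and 2.82 ± 0.14 in controls (SD, n = 5 each), a difference of 0.20, or 1.15-fold, with a 95% interval from 0.92-fold to 1.43-fold (limma, adjusted p = 0.473). Probe A_51_P327869 gave 1.26, 1.95, 1.17, 1.54 and 0.86 in unloaded animals, against 1.05, 1.26, 1.05, 1.05 and 0.89 in controls. The order of the animals was nearly the same as on the first probe, and the difference was 0.29 with a standard error of 0.167 (limma, adjusted p = 0.371).

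The size of the Pth1r difference rested on single animals at both ends. Without unloaded animal 2 it was 0.068 on the first probe and 0.15 on the second, and without unloaded animal 5 it was 0.31 and 0.42, with adjusted p of 0.427 and 0.376 in limma. Within the second slide, where 3 unloaded animals stood against 1 control, it was 0.52 and 0.57. On both probes control 5, the control on that slide, had a lower signal than the 4 controls of the first slide.

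Casr, the calcium-sensing receptor, had 1 probe, A_52_P416166. It gave 0.030, -0.43, -0.60, -0.35 and -0.20 in unloaded animals 1 to 5, against -0.47, -0.64, -0.79, -0.47 and -0.59 in controls 1 to 5. Of the unloaded values, 4 of 5 were above every control, and the value of unloaded animal 3 lay among the controls. The mean was -0.31 ± 0.24 in unloaded animals and -0.59 ± 0.14 in controls (SD, n = 5 each), a difference of 0.28 or 1.21-fold, with a 95% interval from 0.020 to 0.54 log2 units. The unadjusted p was 0.0366 and the adjusted p 0.292 in limma, so the difference did not pass. It was 0.26 within the second slide and between 0.20 and 0.35 when any single array was left out. Changes of processing or model made it smaller. It was 0.19 with median scaling, 0.24 with quantile normalization and 0.24 with normexp background correction. With array weights it was 0.25, and with body weight as a covariate 0.24. Under each of these changes of processing or model, Casr missed the unadjusted limit of 0.05 that it met in the main fit.

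Calcr, the calcitonin receptor of osteoclasts, showed no difference that the spread between animals could resolve. Its first probe, A_52_P469789, gave -0.21, -0.69, -0.35, -0.62 and -0.070 in unloaded animals, against -0.33, -0.66, -0.79, -0.80 and -0.15 in controls. Both groups covered nearly the same range. The difference was 0.15 with a 95% interval from -0.18 to 0.49 (limma, adjusted p = 0.597), and on probe A_52_P554768 it was 0.12 with an interval from -0.15 to 0.39 (adjusted p = 0.611). Single arrays moved both values: the first was 0.074 without unloaded animal 5 and 0.25 without control 5, and the second 0.069 without unloaded animal 4 and 0.23 without unloaded animal 2. Within the second slide both turned negative, at -0.27 and -0.15. The 2 probes were moderately related over the animals, with r = 0.61.

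Calcrl, the receptor that RAMPs convert to a calcitonin gene-related peptide or adrenomedullin receptor, had the largest difference among the members, and it was lower in unloaded bone. Probe A_51_P225186 gave 0.29, 0.18, -0.0090, -0.23 and -0.14 in unloaded animals 1 to 5, against 0.80, 0.63, 0.32, 0.38 and 0.035 in controls 1 to 5. Of the unloaded animals, 3 were below every control, and 4 controls were above every unloaded animal; control 5 alone lay among the unloaded values. The mean was 0.018 ± 0.22 in unloaded animals and 0.43 ± 0.30 in controls (SD, n = 5 each), a difference of -0.41, or 1.33-fold lower, with a 95% interval from -0.73 to -0.098. Its unadjusted p was 0.0142 and its adjusted p 0.256 in limma. The second probe, A_52_P58949, differed by -0.17 with a standard error of 0.132 (limma, adjusted p = 0.501), between -3.41 and -2.71 in unloaded animals and between -3.14 and -2.83 in controls.

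The slides bear on this difference directly. The 4 controls above every unloaded animal were the 4 arrays of the first slide, and control 5 was hybridised on the second slide beside unloaded animals 1 to 3. Within that slide the sign turned, to 0.12 on the first probe and 0.077 on the second. Group and slide cannot be told apart for this gene beyond that single control. Leaving out single arrays kept the first probe between -0.51, without control 5, and -0.32, without control 1, while the second was -0.28 without unloaded animal 3 and -0.10 without unloaded animal 1.

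**Figure D2:**
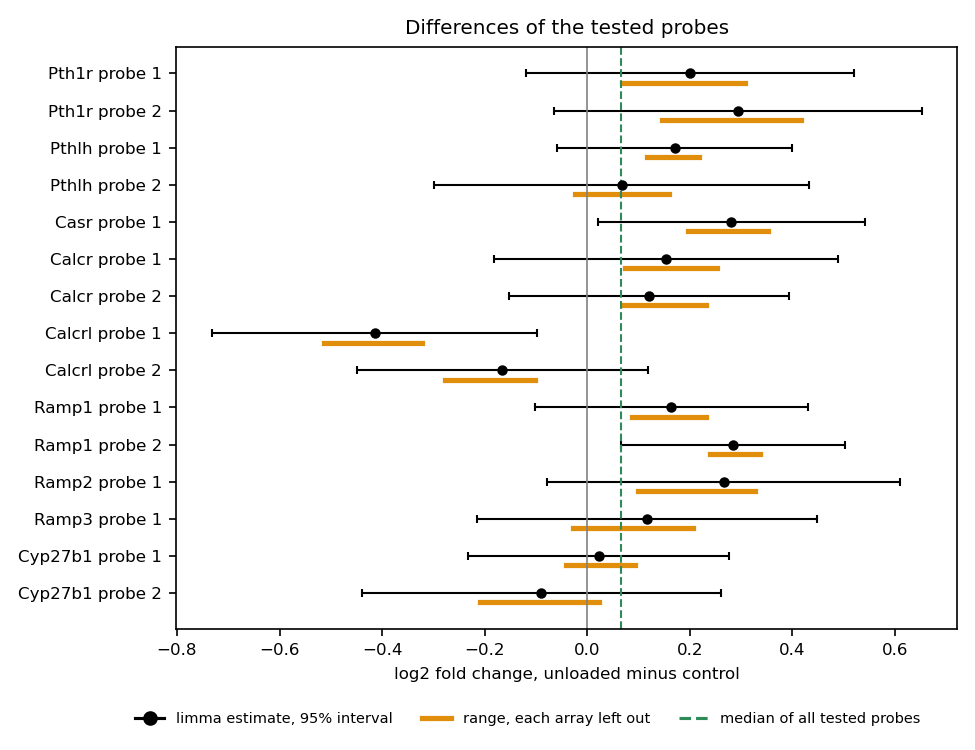
Log2 fold change, unloaded minus control, of the 15 tested probes. Black points are the limma estimates with 95% intervals (n = 5 each). Orange bars are the range when each array was left out in turn, and the dashed line is the median of all tested probes (0.066). Of the 15 points, 12 lie above 0. The intervals of Casr, of the first Calcrl probe and of the second Ramp1 probe, which targets a cDNA clone, leave out 0.

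Ramp1, the partner that makes Calcrl a receptor for calcitonin gene-related peptide, gave different answers on its 2 probes. Probe A_51_P348665, which targets the annotated transcript, gave 1.31, 1.67, 1.61, 1.59 and 1.71 in unloaded animals, against 1.41, 1.28, 1.66, 1.10 and 1.62 in controls. The groups overlapped over most of their range, the difference was 0.16 with a 95% interval from -0.10 to 0.43 (limma, adjusted p = 0.481), and within the second slide it was -0.087. Without control 4 it was 0.087. Probe A_52_P802899 is named Ramp1 in the scanner file but targets the cDNA clone AK037826, which the RefSeq gene list did not hold. It gave -1.70, -1.91, -1.70, -1.58 and -1.85 in unloaded animals, against -1.82, -2.02, -2.21, -2.01 and -2.10 in controls. Of the unloaded animals, 3 were above every control, and 4 controls were below every unloaded animal. The difference was 0.28 with a standard error of 0.101, an unadjusted p of 0.0143 and an adjusted p of 0.256 in limma. It was 0.33 within the second slide, but 0.14 with normexp background correction, 0.19 with median scaling and 0.18 with quantile normalization. Over the 10 animals the 2 probes gave r = 0.023. The clone's probe, called the second Ramp1 probe elsewhere, is not taken as a measure of Ramp1.

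Ramp2, which makes Calcrl an adrenomedullin receptor and is abundant in endothelium, was set apart by 1 animal. Probe A_51_P277536 gave 2.03, 2.18, 1.95, 1.96 and 2.87 in unloaded animals 1 to 5, against 1.76, 2.02, 2.06, 1.99 and 1.81 in controls 1 to 5. Unloaded animal 5, the animal whose array stood apart, was far above all others, and the other 4 unloaded animals lay within or just above the control range. The difference was 0.27 with a standard error of 0.160 (limma, adjusted p = 0.391), and without unloaded animal 5 it was 0.099 (adjusted p = 0.695).

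Ramp3, the other adrenomedullin partner, gave -1.93, -0.99, -1.72, -1.47 and -1.74 in unloaded animals, against -1.50, -1.57, -1.70, -1.85 and -1.80 in controls, on probe A_51_P227090. Unloaded animal 2 was the highest and unloaded animal 1 the lowest of all, and the groups overlapped. The difference was 0.12 with a 95% interval from -0.22 to 0.45 (limma, adjusted p = 0.693), and without unloaded animal 2 it was -0.028.

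Cyp27b1, the enzyme that activates vitamin D, differed least. Probe A_51_P287225 gave -1.59, -1.57, -2.00, -1.55 and -1.88 in unloaded animals, against -1.63, -1.72, -1.99, -1.78 and -1.57 in controls. The groups covered the same range, and the difference was 0.022 with a 95% interval from -0.23 to 0.28 (limma, adjusted p = 0.930). The second probe, A_51_P287221, which targets the sequence AB006034, differed by -0.089 with an interval from -0.44 to 0.26 (adjusted p = 0.779). Cyp24a1, which degrades active vitamin D, was not well above background on any of the 5 unloaded arrays and was so on 1 of the 5 control arrays. Its probe A_52_P88648 had unscaled intensities of 11, 27, 25, 16 and 21 in unloaded animals, against 32, 20, 22, 36 and 13 in controls. No fold is given for it.

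For 6 genes there were 2 tested probes, and the agreement between the probes of a gene ranged widely over the 10 animals. Both Pth1r probes gave r = 0.94 and rho = 0.90 (permutation p = 5e-05 for r and 0.00073 for rho; adjusted over 18 relations, 0.0009 and 0.0131), and r = 0.79 without unloaded animals 2 and 5. The pairs of Calcr (r = 0.61, rho = 0.68), Calcrl (r = 0.31, rho = 0.37), Pthlh (r = 0.28, rho = 0.36), Cyp27b1 (r = 0.066, rho = 0.27) and Ramp1 (r = 0.023, rho = -0.12) did not pass after that adjustment. A receptor and its partner were compared in the same way. Calcrl gave r = -0.61 with Ramp1, -0.42 with Ramp2 and 0.040 with Ramp3, and Calcr 0.27, 0.26 and -0.38 with Ramp1, Ramp2 and Ramp3; none of these 6 relations passed. The slides hold 4, 4 and 2 arrays, too few for a correlation within each.

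**Figure D3:**
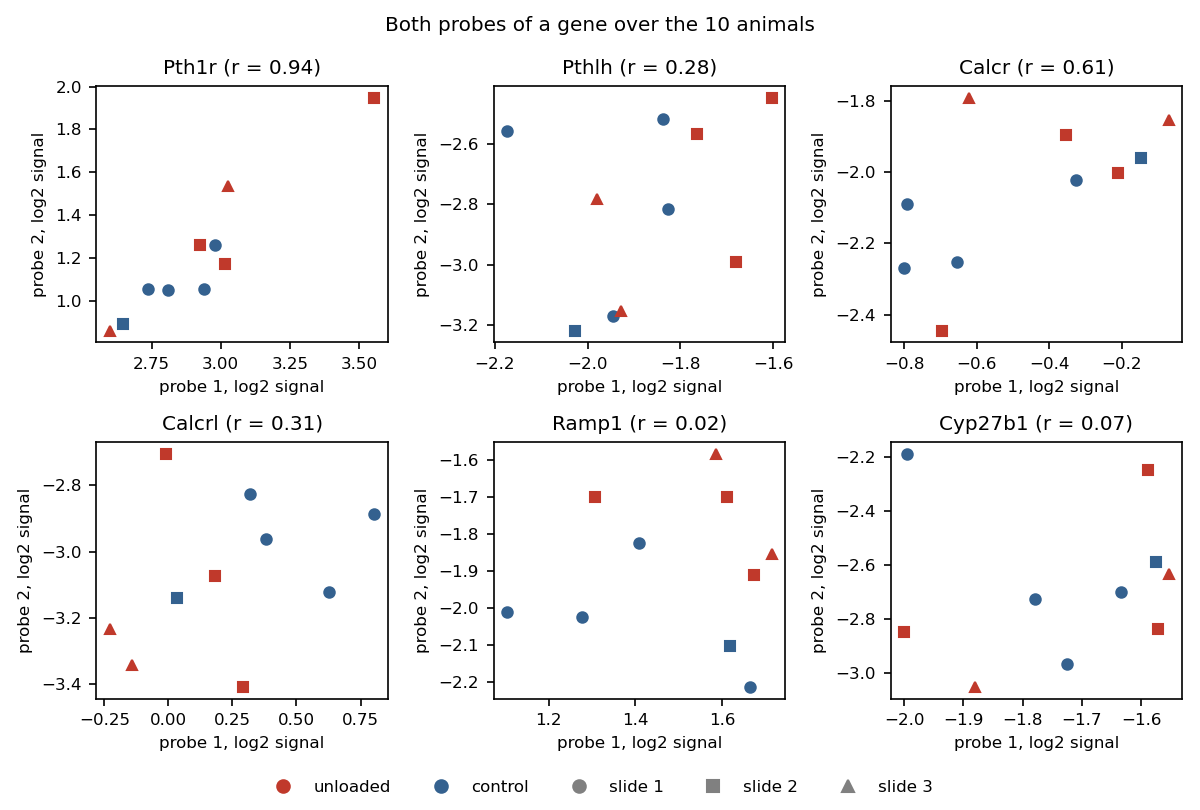
Scaled log2 signal of the second probe against the first for the 6 genes with 2 tested probes; each point is 1 animal, colour gives the group and shape the slide. The Pth1r points lie along a line (r = 0.94), while those of Ramp1 (r = 0.023) and Cyp27b1 (r = 0.066) are scattered.

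Cell type markers varied between animals and were set beside the members. The mean signal of the 8 cartilage markers, such as Col2a1, Acan and Comp, was between 2.40 and 3.20 in unloaded animals and between 2.21 and 3.00 in controls, and the difference was positive for 8 of 8, with none called. Pth1r followed these markers over the 10 animals with r = 0.85 and rho = 0.84 (permutation p = 0.00075 and 0.00379; adjusted over 18 relations, 0.00675 and 0.0341). The relation was r = 0.82 with the group means removed, 0.83 without unloaded animal 5, and 0.81 without unloaded animals 2 and 5. Pthlh gave r = 0.72 and rho = 0.65 with the same markers (permutation p = 0.0182 and 0.0485; adjusted, 0.0817 and 0.218), which did not pass. Of the 8 osteoblast and osteocyte markers, 7 had a value on every array, and their mean was between 3.36 and 3.82 in unloaded animals and between 3.11 and 3.54 in controls. Pth1r gave r = 0.82 and rho = 0.50 with it (permutation p = 0.00988 and 0.142; adjusted, 0.0593 and 0.426), which did not pass, r = 0.76 without unloaded animals 2 and 5, and r = 0.55 without unloaded animal 2, which was left out alone after its values had been seen. Unloaded animal 2 had the highest mean of both lists. The part of these cell types in the Pth1r difference was not tested.

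Between osteoclast or endothelial markers and the receptors linked to those cells, no relation passed the test. The 8 osteoclast markers were between 2.07 and 2.78 in unloaded animals and between 2.19 and 2.45 in controls, and Calcr gave r = -0.42 with them (adjusted permutation p = 0.543). The 8 endothelial markers, such as Pecam1, Cdh5 and Kdr, were between 0.40 and 0.79 in unloaded animals and between 0.47 and 0.67 in controls. Calcrl gave r = 0.33 with them (adjusted permutation p = 0.616) and Ramp2 r = -0.19 (adjusted permutation p = 0.697). Unloaded animal 5 had the lowest endothelial mean and the highest Ramp2 value, and over the other 9 animals Ramp2 and the endothelial markers gave r = 0.81, a value chosen after the outlying animal had been seen. The mean of the muscle, adipocyte and B cell markers differed by -0.17, -0.19 and -0.19, that of 3 erythroid markers with a value on every array by -0.070, and that of 5 such neutrophil markers by -0.012. The difference was negative for 7 of 8 muscle, 8 of 8 adipocyte and 4 of 6 B cell markers, among which Pax5 differed by -0.79. Without unloaded animal 5 the muscle, adipocyte and B cell means differed by -0.093, -0.31 and -0.099. None of the tested markers of the 9 lists was called; their part in the members' values was not tested.

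**Figure D4:**
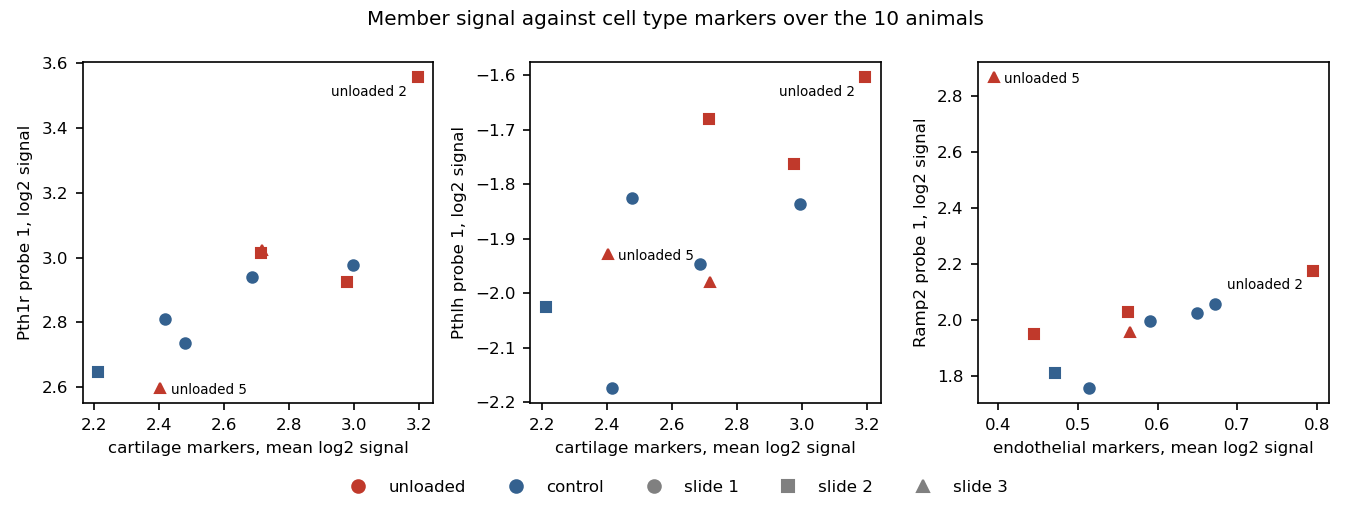
Scaled log2 signal of Pth1r and Pthlh against the mean of the 8 cartilage markers, and of Ramp2 against the mean of the 8 endothelial markers, 1 point per animal (colour: group, shape: slide). Pth1r lies along the cartilage markers (r = 0.85), and unloaded animal 5 lies apart from the other 9 animals in the Ramp2 panel.

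Around the members, 63 further genes of the same pathways were looked at in 5 lists, of which 61 were tested and 0 called; the lowest adjusted p was 0.211. The difference was positive for 36 and negative for 25, with a median of 0.049, against 0.066 for all probes. At an unadjusted limma p below 0.05, 6 were higher, against 10.2% of all probes, and 5 lower, against 5.92%. In 5 of the 61 the groups did not overlap, 3 of them with every unloaded animal higher and 2 lower, against 1.51% and 1.65% of all probes. Because the lists were proposed with earlier results of these data known, no excess over those shares can be read from these counts.

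Of the 8 ligands and modulators, none was called, 7 were positive and their median difference was 0.15. Calca, which encodes calcitonin and calcitonin gene-related peptide, averaged -2.70 ± 0.33 in unloaded animals and -3.13 ± 0.28 in controls (SD, n = 5 each). Its difference was 0.43 with a standard error of 0.168 (limma, adjusted p = 0.271), and 0.25 with normexp background correction. Calcb, the second gene of calcitonin gene-related peptide, averaged -2.05 in unloaded animals and -2.42 in controls. It differed by 0.36 (limma, adjusted p = 0.344), or 0.19 without unloaded animal 5 and 0.25 with normexp background correction. Iapp, the gene of amylin, averaged -2.27 in unloaded animals and -2.58 in controls, a difference of 0.31 (limma, adjusted p = 0.360). Among 4 other receptors, 3 were positive and none was called. Pth2r, a receptor related to Pth1r, averaged -2.32 in unloaded animals and -2.67 in controls, a difference of 0.35 (limma, adjusted p = 0.256). The vitamin D receptor Vdr differed by 0.14 (adjusted p = 0.549) and its partner Rxrb by -0.11 (adjusted p = 0.626). Leaving out 1 array took Vdr to 0.047, without control 5, and Rxrb to -0.028, without unloaded animal 5. Within the second slide Iapp, Pth2r and Rxrb turned sign, at -0.027, -0.016 and 0.015. Calca and Calcb kept their sign there but were smaller, at 0.11 and 0.078.

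The 22 genes of G proteins, cAMP and desensitization were positive in 7 and negative in 15, with a median of -0.075 and none called. Pde4d, a phosphodiesterase that breaks down cAMP, was above every control in all 5 unloaded animals, with -0.81 ± 0.073 in unloaded animals and -1.20 ± 0.094 in controls (SD, n = 5 each). Its difference was 0.40 with a standard error of 0.0868, it was positive on 4 of its 4 probes, and the adjusted p was 0.211 in limma. The adenylate cyclase Adcy7 differed by -0.21 and was below every control in all 5 unloaded animals (adjusted p = 0.274). Prkaca, a catalytic subunit of protein kinase A, differed by -0.35 (adjusted p = 0.301), and by -0.21 without unloaded animal 5.

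Of 15 genes known from osteoblast-lineage cells to respond to parathyroid hormone, 14 were tested, 9 were positive, 5 negative and none called, with a median of 0.020. Il6, a cytokine that acts on osteoclast formation, averaged -2.85 ± 0.17 in unloaded animals and -3.26 ± 0.072 in controls (SD, n = 5 each), with every unloaded animal above every control and an adjusted p of 0.218 in limma. Nr4a2, a nuclear receptor of the early response, averaged -1.28 ± 0.12 in unloaded animals and -0.89 ± 0.18 in controls, with every unloaded animal below every control and an adjusted p of 0.219. Rgs2, a regulator of G protein signalling, averaged 3.74 ± 0.14 in unloaded animals and 3.99 ± 0.14 in controls (adjusted p = 0.283). These 3 differed in direction: 0.41 for Il6, -0.39 for Nr4a2 and -0.25 for Rgs2. Over 22 alternative fits, which changed the processing, the model or the arrays, Il6 ranged from 0.18 to 0.48 and Nr4a2 from -0.48 to -0.11. Rgs2 ranged from -0.50 to -0.19.

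Vitamin D activation, transport and calcium handling had 13 tested genes out of 14, of which 10 were positive, 3 negative and none called, with a median of 0.16. S100g, a vitamin D-dependent calcium-binding protein, averaged -0.57 ± 0.13 in unloaded animals and -0.92 ± 0.080 in controls (SD, n = 5 each), with the groups apart and an adjusted p of 0.218 in limma. The calcium channel Trpv5 averaged -2.38 in unloaded animals and -2.73 in controls, a difference of 0.35 (limma, adjusted p = 0.296). It turned sign within the second slide, at -0.15. Calb1, another calcium-binding protein, averaged -2.62 in unloaded animals and -2.81 in controls, a difference of 0.19 (limma, adjusted p = 0.342).

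**Figure D5:**
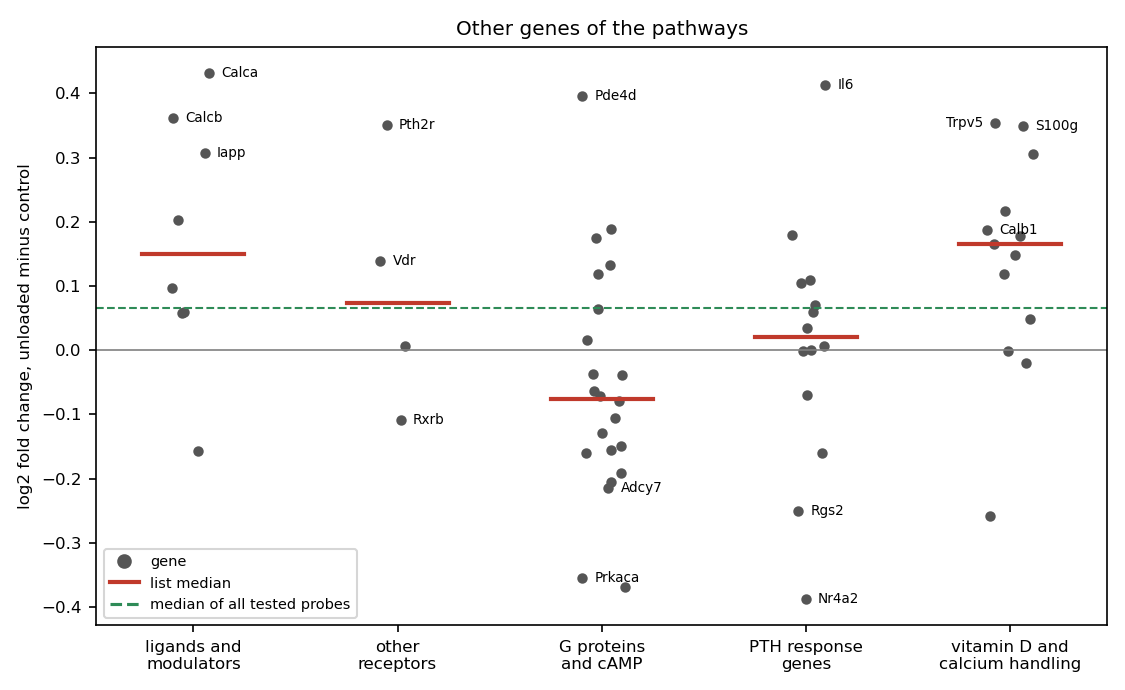
Log2 fold change, unloaded minus control, of the 61 tested genes of the 5 pathway lists, 1 point per gene, with the list median as a red bar and the median of all tested probes (0.066) as a dashed line. The named genes are labelled; the points of each list lie on both sides of 0, and none was called.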

How the data were processed

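Spot intensity on a linear scale was deposited by the authors as scanner output, 1 file per array, with a value table whose intensities matched the processed signal to within rounding. Per the file headers, the spots came from Agilent Feature Extraction, version 9.1.3.1, run under the protocol GE1-v5_91_0806. Spatial and multiplicative detrending were on, the background method had code 7, and arrays were not scaled to each other. Each array had 45018 spots, 43379 of them for genes; 97 outlier spots were left out and no probe was saturated.

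Spots of a probe were averaged as log2 processed signal, and the array's 75th percentile was subtracted. Tested probes were those well above background in 4 or more animals of either group and with a value in 3 or more animals of both. Names came from a RefSeq list of GRCm38.p6 (22951 probes by accession, 6659 by current symbol, 3109 by older symbol, 8455 by file name only); the brightest tested probe stood for a gene outside the members. The comparison used lmFit and eBayes of limma 3.58.1 under R 4.3.3 on all 10 arrays, with no covariate and Benjamini-Hochberg adjustment. The fit was also run on simulated arrays with independent noise and no slide effect, so that run says nothing about slide and group. Relations over animals used 100000 permutations, two-sided. Plots were made with matplotlib 3.10.9.

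Members are given whatever their result; of each pathway list the called genes, then by p, up to 3 genes are named, and for each member the 3 genes most like it. The rule for members uses names alone, but the members and lists were proposed with earlier results of these data known. Means of marker lists cover the markers with a value on all 10 arrays. Alternatives covered background correction, scaling, dim-probe filter, the value table, array weights, body weight, slide, replicate number, choice of probe and each array left out. Precision is limited by the number of arrays.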

Additional observations from a re-analysis of the deposited data

Results flagged for a closer look

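Of 60 groups of 5 animals looked at, 2 held a single animal far from the other 4, and chance gives about 3. Ramp2 was 2.87 in unloaded animal 5, against 1.95 to 2.18 in the other 4 unloaded animals. Vdr was 2.01 in unloaded animal 2, against 1.62 to 1.67 in the other 4 unloaded animals.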

How the results depend on the processing

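No member probe and no pathway gene was called under any alternative run, and over all probes 1 was called, except for 0 with body weight as a covariate, 3 with slide as a fixed block, 7 on the slide that holds both groups, and 0 to 2 when each array was left out in turn. The 3 member probes at an unadjusted p below 0.05 were 1 with normexp or median scaling, 0 with slide as a fixed block and 2 to 4 with each array left out, and the 12 positive ones were 10 with median scaling or quantile normalization and 9 without unloaded animal 2. Of 330 re-fits of member differences, 29 turned sign, and of 330 of the named pathway genes, 9. With slide as a fixed block or on the shared slide alone, which rests on 1 control and gives the same values, the sign turned for Calcr (-0.27 and -0.15), Calcrl (0.12 and 0.077), the first Ramp1 probe (-0.087), the first Cyp27b1 probe (-0.15), Iapp (-0.027), Pth2r (-0.016), Rxrb (0.015) and Trpv5 (-0.15). The second Pthlh probe was -0.060 with normexp, -0.027 with median scaling and -0.037 with quantile normalization. The first Cyp27b1 probe was -0.073 with median scaling and -0.078 with quantile normalization, and the second 0.031 with array weights. With body weight as a covariate the first Calcr probe was -0.019, the second Cyp27b1 probe 0.011 and Rxrb 0.017. Leaving out single arrays gave -0.023 to 0.16 for the second Pthlh probe, -0.028 to 0.21 for Ramp3, -0.041 to 0.093 for the first and -0.21 to 0.022 for the second Cyp27b1 probe. The cause of these turns was not tested. Median scaling moved the median of all probes by -0.095, and turned the split at an unadjusted p below 0.05 from 3939 higher and 2286 lower probes to 1386 higher and 4474 lower; quantile normalization gave 2095 and 2938, and normexp 1364 and 1866. With the replicate number as a replicate block, 1 probe was called over all, 0 among members and 0 among pathway genes. Same-numbered animals correlated between -0.14 and 0.18, and 0 of 5 correlated best with its own number. No pairing by number was seen, but 5 pairs, each on different slides, are too few to exclude it.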

Other observations

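Genes whose signal over the 10 arrays was most like that of each member were ranked among 17708 genes by Pearson's r, as a description in which all points share array, slide and depth of labelling. For Pth1r they were Mc4r (r = 0.94), Bcar1 (0.94) and Jade2 (0.93), and for Pthlh Sall3 (0.90), Vmn1r46 (0.90) and Cyp39a1 (0.87). For Casr they were Asphd2 (0.95), Ppard (0.95) and Zfp949 (0.93), and for Calcr Ttc29 (0.97), Tbx20 (0.95) and Csn1s2b (0.94). Calcrl was followed by Diaph2 (0.93), Nr4a2 (0.91) and Zfp935 (0.91); the group difference of Nr4a2 was -0.39 and that of Calcrl -0.41. The nearest to Ramp1 were Rpl32, Eif4ebp1 and Use1 (0.97 each), and to Ramp3 Fkbp11 (0.95), the osteoclast protease Ctsk (0.93) and Adcy3 (0.92). Those of Ramp2 were Lrrn4cl, Kank3 and Irx6 (0.96 each), which without unloaded animal 5 gave 0.76, 0.83 and 0.82. Cyp27b1 was nearest to Fam221b (0.89), Olfr397 (0.87) and Olfr487 (0.87).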
